A study of Sus scrofa with 8 samples.

Results

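T and NK lymphocyte genes were followed in skin of Yorkshire swine after an intradermal injection of IL-15. The set was defined as the rows of the deposited count table whose symbol was among 52 chosen symbols of T cells and natural killer (NK) cells. A row was found for 44 of the symbols, which gave 45 genes of 31907 in all, because GZMA named 2 neighbouring genes. Of the 45 genes, 35 had enough counts to be tested and 10 did not.

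The study sampled wild-type skin from 2 pigs, numbered 13 and 14. At 2 sites of each pig IL-15 was injected into the skin, 200 ng per site dissolved in a saline volume of 100 µl, with biopsies at 3 h. A further 2 sites per pig were sampled uninjected. The injected group was thus sites 12c and 12e of pig 13 and sites 12c and 12d of pig 14, and the control group sites 6b and 7b of pig 13 and sites 6b and 7e of pig 14. No site received saline alone, and injected and control sites carried different numbers, so the cytokine, the injection and the position of the site cannot be told apart. RNA came from whole biopsies, so a gene can be low because fewer cells of a type were present or because each held less RNA, and these cannot be told apart. Biopsies of a pig are not separate animals, and p-values below measure the spread between sites of these 2 pigs.

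IL-15 binds a receptor whose beta and gamma chains pass the signal to JAK1, JAK3 and STAT5, and NK cells and memory CD8 T cells depend on it for survival and activation. T cells recognise antigen with a receptor coupled to the CD3 chains, which recruit the kinases LCK and ZAP70. NK cells instead balance activating and inhibitory receptors, and both cell types kill targets with perforin and granzymes held in granules. Skin normally holds resident T cells in epidermis and dermis.

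In these whole biopsies the lymphocyte genes were a small part of the RNA. Total counts ran from 28471089 to 36070107 per biopsy, and the 45 genes together were at 139 to 259 CPM (counts divided by the TMM-scaled library total). Levels per kilobase of gene length (RPKM) compare genes with each other. Serglycin (SRGN), the proteoglycan core of granules in many blood cells, had the highest mean at 15 RPKM, followed by the transcription factor BCL11B at 13.1 and the granule protein NKG7 at 7.73. BCL11B is also made by epidermal keratinocytes, and TCF7, at 3.90 RPKM, is not restricted to lymphocytes either. Genes that define T cells were lower, with 1.18 RPKM for LCK, 1.17 for CD3D, 0.956 for CD2 and 0.782 for CD3E. The plot of levels by biopsy shows all 45 genes.

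**Figure D1:**
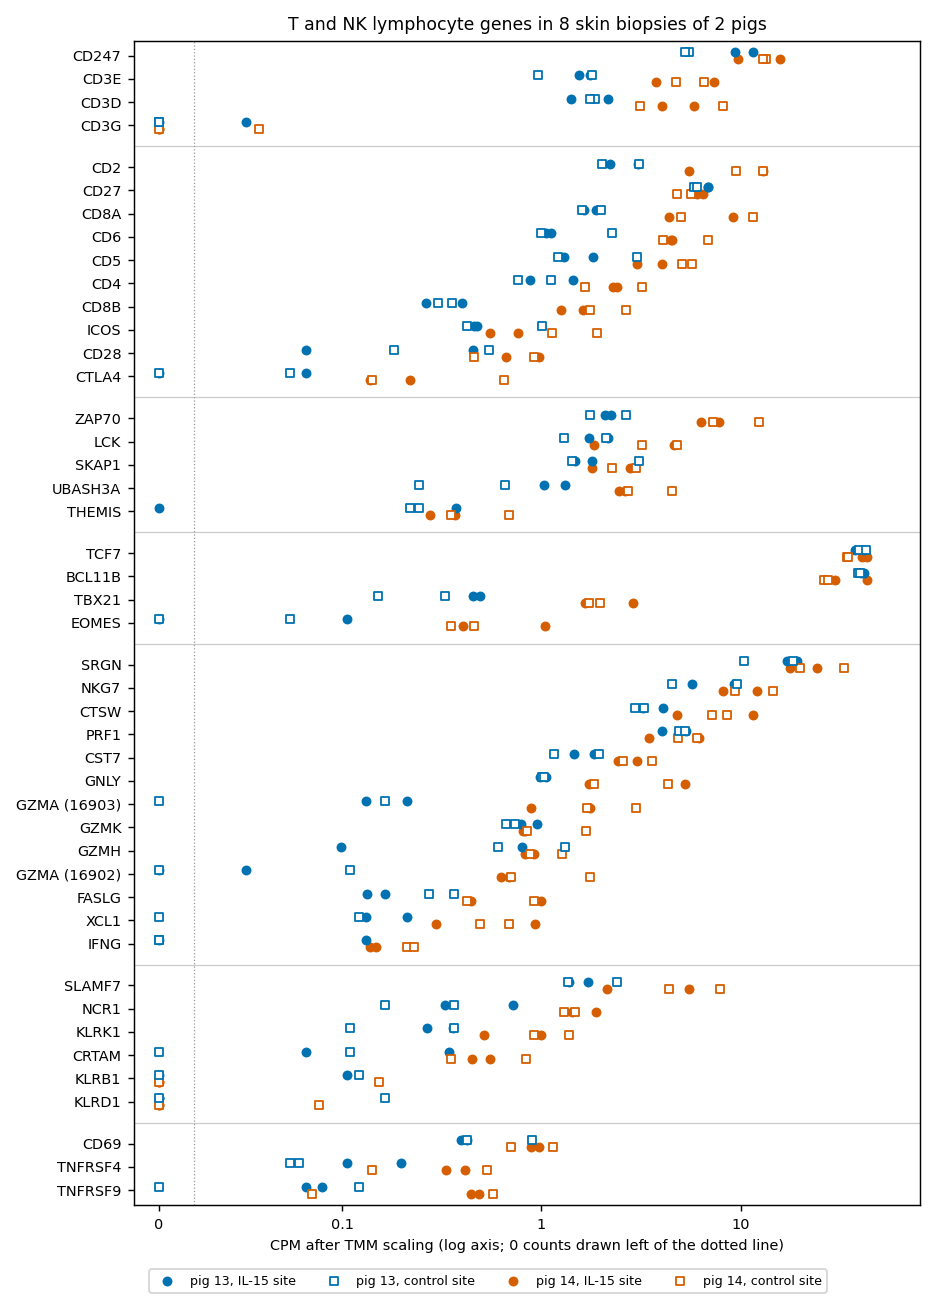
Level of each of the 45 lymphocyte genes (rows, in groups by role from T cell receptor chains at the top to activation receptors at the bottom) in CPM after TMM scaling on a log axis, 1 point per biopsy, blue for pig 13 and orange for pig 14, filled for injected and open for control sites. For T cell genes such as CD3E and ZAP70 the orange points lie to the right of the blue points whether filled or open, while TCF7 and PRF1 overlap.

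The first question was whether IL-15 had changed these genes at 3 h. No lymphocyte gene was called different between injected and control sites by edgeR's quasi-likelihood test, with pig in the model and p adjusted over all genes (0 of 35 tested, smallest adjusted p = 0.96). Of all 19862 tested genes, 0.0352% were called. At an unadjusted p under 0.05 there was 1 lymphocyte gene, ICOS, beside 4.54% of all genes, and DESeq2 called 0 lymphocyte genes beside 0.292% of all genes. The median log2 fold change of the 35 genes was -0.12, and that of all tested genes -0.01. No gene of the 45 had all injected biopsies above all controls or the reverse, which 0.965% and 0.910% of genes with at least 1 count showed. This 0 says little about treatment, since 23 of the 45 had every pig 14 biopsy above every pig 13 biopsy. Such genes cannot show either pattern, as each group held biopsies of both pigs. Of genes with at least 1 count, 7.84% were barred in this way and 6.59% by the reverse order of the pigs. Within each pig alone edgeR also called 0 lymphocyte genes, of 31 tested in pig 13 and 40 in pig 14, where 0.148% and 0.0854% of all genes were called.

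CD3E and CD3D overlapped between injected and control sites within both animals, and CD247 did so in pig 14 only. CD3E (chromosome 9, 45619481 to 45635379, Sscrofa11.1), a signalling chain of the receptor, was at 0.966 and 1.80 CPM in the controls of pig 13 and at 1.54 and 1.75 in its injected sites. In pig 14 it was at 4.76 and 6.56 CPM in controls and 3.75 and 7.33 in injected sites. Its log2 fold change of injected over control was 0.10 ± 0.27 (SE), with a 95% interval from -0.50 to 0.70, or 0.705-fold to 1.62-fold. CD3D had -0.12 ± 0.30, and CD247, the zeta chain with several activation motifs that also serves NK receptors, had 0.44 ± 0.23.

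Coreceptors and surface molecules were alike. CD8A, the coreceptor of cytotoxic T cells, had -0.18 ± 0.31, and CD4, that of helper T cells, 0.11 ± 0.29. CD2, an adhesion molecule of T and NK cells, had -0.13 ± 0.28, and CD5, a brake on receptor signalling, -0.54 ± 0.28. ICOS, a costimulatory receptor of activated T cells, had the smallest p of the 35 genes. It was at 0.423, 1.01, 1.13 and 1.91 CPM in the 4 controls and at 0.460, 0.477, 0.551 and 0.760 CPM in the 4 injected biopsies. In pig 14 the injected values, 0.551 and 0.760, lay below the controls, 1.13 and 1.91. In pig 13 the injected values, 0.460 and 0.477, lay between the controls, 0.423 and 1.01. The log2 fold change of ICOS was -0.92 ± 0.37 by edgeR (unadjusted p = 0.0296, adjusted p = 0.96). Of the kinases next to the receptor, ZAP70 had -0.27 ± 0.22 and LCK -0.06 ± 0.31, and the adaptor SKAP1 had -0.32 ± 0.28.

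Cytotoxic effectors, which IL-15 is known to raise in cultured NK and T cells, were not called either. Perforin (PRF1, chromosome 14, 73512769 to 73520202) ranged from 3.45 to 6.19 CPM among injected biopsies and from 4.83 to 6.06 CPM among controls. Its log2 fold change was -0.15 ± 0.21, with a 95% interval from -0.61 to 0.30, so a rise above 1.23-fold lay outside it. NKG7 had -0.08 ± 0.28, the cysteine protease CTSW 0.15 ± 0.25, and SRGN 0.00 ± 0.25. Of the effectors the GZMA gene ENSSSCG00000016902 had the smallest p (-1.0 ± 0.62, unadjusted p = 0.138 by edgeR). The granzyme row with the symbol GZMH had 3, 24, 25 and 30 counts in injected and 20, 23, 36 and 48 in control biopsies (-0.67 ± 0.50). This row spans 74705409 to 74727437 of chromosome 7, where RefSeq of the same build places both GZMB (74705499 to 74708781) and GZMH (74723800 to 74727396). Reads of granzyme B and granzyme H over this stretch were thus counted on 1 row, and no other row was found for GZMB.

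NK receptors had estimates on both sides of 0, and the 3 tested transcription factors estimates above 0, none of them called. NCR1, an activating receptor found on NK cells, had 0.56 ± 0.36 and KLRK1, an activating receptor shared by NK and CD8 T cells, -0.18 ± 0.45. TBX21, which encodes the transcription factor T-bet, had 0.54 ± 0.32 and BCL11B 0.25 ± 0.13. CD69, an early activation marker of lymphocytes, had -0.33 ± 0.35, at 12 to 28 counts per injected and 14 to 33 per control biopsy. IFNG, the cytokine of activated T and NK cells, had 0, 4, 4 and 4 counts in injected and 0, 0, 6 and 6 in control biopsies and was not tested. In the 3 biopsies with 0 counts, all of pig 13, the limit that 0 counts set was 0.083 to 0.099 CPM before TMM scaling.

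The precision of these estimates differed widely between genes. The 95% interval on the log2 scale reached to either side of the estimate by 0.22 for TCF7, 0.68 at the median and 1.53 for CRTAM. For 19 of the 35 genes the whole interval lay between log2 values of -1 and 1. For 30 genes its upper end lay under 1, so a doubling was outside the interval. For the other 5 a doubling lay within the interval.

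**Figure D2:**
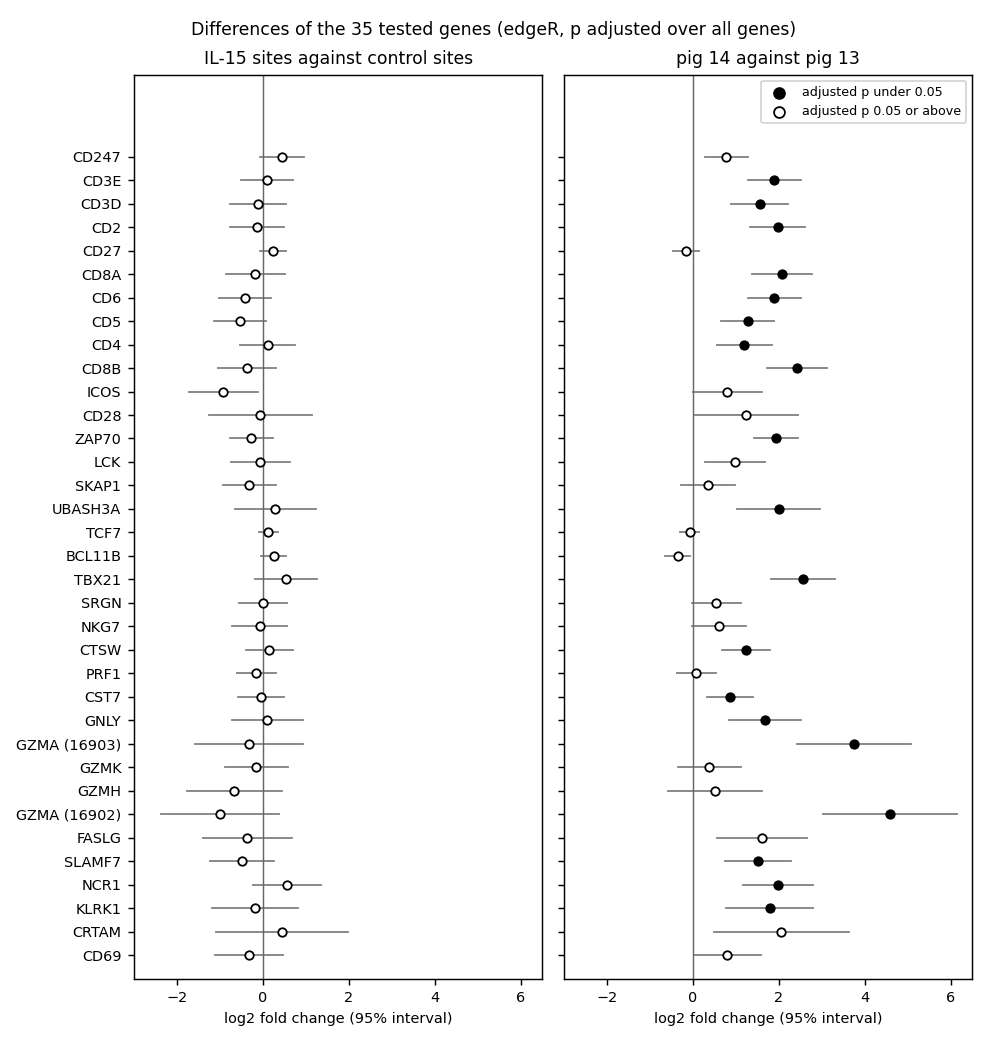
Log2 fold change with its 95% interval for the 35 tested lymphocyte genes, left for injected against control sites and right for pig 14 against pig 13, with filled points for an adjusted p under 0.05. On the left no point is filled and 34 intervals include 0, and on the right 19 points are filled, all above 0.

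The 2 pigs, in contrast, differed in many of the same genes. In pig 14, 19 of the 35 tested genes were higher than in pig 13 and none was lower (edgeR, term for pig in the same model), and 6.39% of all tested genes were called higher and 4.34% lower. The filter on low counts favours genes that are high in 1 animal, since 10 of the 35 reached its minimum of 0.331 CPM in all biopsies of pig 14 but not in all of pig 13. Without the filter all 45 genes entered the fit, 21 were higher in pig 14 and none lower, where 4.48% of 29016 genes were higher and 3.11% lower. DESeq2 called 23 of the 35 higher, beside 9.08% of all genes. In 23 of the 45 genes every pig 14 biopsy was above every pig 13 biopsy, and the reverse held for 0, where 7.84% and 6.59% of genes with at least 1 count showed these patterns. The median log2 fold change of the 45 genes in the fit without the filter was 1.5, and that of all genes in it 0.01. With the filter it was 1.27 for the 35 tested genes. For the 24 genes that reached the minimum in all pig 13 biopsies it was 0.92, and 12 of these were called higher and 0 lower. The share of all genes chosen in that way was not computed. These tests compare 2 animals through their sites, and what else differed between the animals or their biopsies cannot be told apart from the animal.

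Among T cell receptor chains CD3E and CD3D were called. CD3E averaged 5.60 ± 1.64 CPM in pig 14 and 1.52 ± 0.382 CPM in pig 13 (SD, n = 4 biopsies), a log2 fold change of 1.88 ± 0.28 by edgeR (3.69-fold, adjusted p = 0.0029). All 4 biopsies of pig 14, at 3.75 to 7.33 CPM, lay above all 4 of pig 13, at 0.966 to 1.80 CPM. CD3D was at 1.41 to 2.15 CPM in pig 13 and 3.14 to 8.20 in pig 14 (1.55 ± 0.30, 2.93-fold, adjusted p = 0.010). CD247 had 0.77 ± 0.23 and was not called (adjusted p = 0.057).

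Of the 10 surface molecules with a row, 6 were higher in pig 14. CD8A was at 1.60 to 1.99 CPM in pig 13 and at 4.37, 5.05, 9.16 and 11.6 CPM in pig 14, 4.21-fold higher (adjusted p = 0.0036 by edgeR). CD8B (chromosome 3, 57968237 to 58003505), the second chain of that coreceptor, was at 0.263 to 0.398 CPM in pig 13 and 1.25 to 2.67 in pig 14, with a log2 fold change of 2.42 ± 0.31 (adjusted p = 0.0015). The pigs did not overlap in either chain, and pig 13 values stayed within a narrow range. CD2 was at 2.02 to 3.08 CPM in pig 13 and 5.48 to 13.0 in pig 14 (1.97 ± 0.29, adjusted p = 0.0033). CD6, a receptor on T cells that binds ALCAM, was at 0.997 to 2.27 against 4.06 to 6.87 CPM (1.88 ± 0.28, adjusted p = 0.0030). CD4 was at 0.764 to 1.44 against 1.66 to 3.20 CPM (1.19 ± 0.29, adjusted p = 0.027). CD5 was at 1.21 to 3.03 against 3.01 to 5.68 CPM (1.27 ± 0.28, adjusted p = 0.018), and it alone of these 6 genes overlapped between the pigs. The ratio of CD8A to CD4 in RPKM was 0.903 to 1.82 in pig 13 and 1.34 to 2.68 in pig 14, and these ranges overlapped.

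ZAP70 (chromosome 3, 56515449 to 56541740), the kinase recruited to the phosphorylated receptor, had the smallest p of all lymphocyte genes in this comparison. It was at 1.75 and 2.67 CPM in controls and 2.09 and 2.23 in injected sites of pig 13. In pig 14 it was at 7.23 and 12.4 CPM in controls and 6.36 and 7.81 in injected sites. The log2 fold change was 1.93 ± 0.23 by edgeR (3.81-fold, adjusted p = 8.6e-04), and the higher animal was the same at injected and control sites. UBASH3A, a phosphatase-related brake on T cell receptor signalling, was at 0.242 to 1.31 CPM in pig 13 and 2.46 to 4.54 in pig 14 (1.99 ± 0.43, 3.98-fold, adjusted p = 0.018). LCK had 0.97 ± 0.31 (adjusted p = 0.075) and SKAP1 0.35 ± 0.28 (adjusted p = 0.47).

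The transcription factors split by gene. TBX21 (chromosome 12, 23996415 to 24009355) was at 0.151 to 0.492 CPM in pig 13 and 1.65 to 2.87 in pig 14, 5.89-fold higher (adjusted p = 0.0015 by edgeR). EOMES, the related T-box factor of cytotoxic cells, was too low for the filter, with 0, 0, 2 and 4 counts in pig 13 and 10, 11, 12 and 30 in pig 14. In the fit without the filter it was called higher in pig 14 (log2 fold change 3.60, adjusted p = 0.0079). TCF7 was at 37.6 to 42.5 CPM in pig 13 and 34.3 to 43.2 in pig 14 (-0.08 ± 0.10). BCL11B averaged 40.3 ± 1.20 CPM in pig 13 and 31.7 ± 7.8 CPM in pig 14 (SD, n = 4 biopsies) and was not called (-0.36 ± 0.13, adjusted p = 0.10).

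Cytotoxic effectors were uneven. The 2 GZMA genes lie side by side on chromosome 16, at 34262484 to 34272615 (ENSSSCG00000016902) and 34282120 to 34290477 (ENSSSCG00000016903), and reads of such neighbours may be split between them. ENSSSCG00000016903 had 0, 4, 6 and 8 counts in pig 13 and 24, 48, 51 and 78 in pig 14, and ENSSSCG00000016902 had 0, 0, 1 and 4 against 17, 20, 20 and 46. Neither reached the minimum of the filter in any pig 13 biopsy, so both entered the test through pig 14 alone. In the fit without the filter their log2 fold changes were 3.73 ± 0.57 and 4.60 ± 0.70 (adjusted p = 0.0014 and 5.9e-04 by edgeR), and with it 3.74 ± 0.60 and 4.59 ± 0.70 (adjusted p = 0.0045 and 0.0034). These folds rest on 0 to 8 counts per biopsy in pig 13. GNLY, the pore-forming granulysin, was at 0.985 to 1.06 CPM in pig 13 and at 1.73, 1.83, 4.34 and 5.25 in pig 14 (3.21-fold, adjusted p = 0.020). CTSW was at 2.96 to 4.08 CPM in pig 13 and 4.78 to 11.6 in pig 14 (1.24 ± 0.25, adjusted p = 0.013). CST7, an inhibitor of granule proteases, was at 1.15 to 1.94 against 2.43 to 3.59 CPM (0.86 ± 0.24, adjusted p = 0.047). XCL1, a chemokine that attracts dendritic cells, was too low for the filter, with 0, 4, 4 and 8 counts in pig 13 and 8, 14, 18 and 27 in pig 14. Without the filter it was called higher in pig 14 (2.40 ± 0.67, adjusted p = 0.036).

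PRF1 did not follow CD3E and CD3D. It averaged 4.89 ± 0.60 CPM in pig 13 and 5.14 ± 1.28 CPM in pig 14 (SD, n = 4 biopsies), a log2 fold change of 0.07 ± 0.21 (adjusted p = 0.86 by edgeR). The ratio of PRF1 to CD3E in RPKM was 2.15 to 5.11 in pig 13 and 0.790 to 0.949 in pig 14, with no overlap. NKG7 and GZMK, a granzyme of memory T cells, had ratios to CD3E of 12.5 to 23.0 against 6.33 to 8.54 and of 1.68 to 2.82 against 0.464 to 1.05. Their own log2 fold changes were 0.61 ± 0.28 and 0.38 ± 0.33, neither called. The receptor chain CD247 had ratios to CD3E of 3.11 to 7.56 in pig 13 and 2.01 to 2.84 in pig 14. Its ranges did not overlap either, so the pattern was not particular to effector genes. CD3E, the denominator of each ratio, was itself higher in pig 14, so any gene that differed less has a lower ratio there. These genes were set beside CD3E after their values were seen, and the ratios were not tested.

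Of the 4 tested NK receptors, 3 were called higher in pig 14, beside 6.39% of all tested genes. Only SLAMF7 reached the minimum of the filter in all pig 13 biopsies, so the filter favoured genes high in pig 14. Without the filter the same 3 were called, of 6 with a row, beside 4.48% of all genes. NCR1 (chromosome 6, 59092655 to 59099992) was at 0.164 to 0.716 CPM in pig 13 and 1.30 to 1.87 in pig 14 (3.95-fold, adjusted p = 0.0081 by edgeR). KLRK1 was at 0.109 to 0.362 CPM in pig 13 and 0.514 to 1.37 in pig 14 (1.78 ± 0.45, adjusted p = 0.033 by edgeR). These levels rest on 4 to 12 counts per biopsy in pig 13 and 14 to 36 in pig 14. SLAMF7, a receptor of NK, T and plasma cells, was at 1.36 to 2.40 against 2.13 to 7.86 CPM (1.51 ± 0.34, adjusted p = 0.021), with overlap between the pigs. The ratio of NCR1 to CD3E in RPKM overlapped between the pigs, at 0.190 to 0.856 in pig 13 and 0.414 to 0.80 in pig 14. KLRB1 had 0 to 4 counts and KLRD1 0 to 6 counts per biopsy, too few to pass the filter. Without the filter their log2 fold changes were -0.87 ± 1.56 and -0.95 ± 1.88, neither called.

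ZAP70, CD8B and TBX21 were called in control sites alone and in injected sites alone, where only 2 biopsies of each pig were compared. Control sites alone gave 6 of 35 genes higher in pig 14, CD247 among them, beside 1.77% of all genes, and injected sites alone 9 of 38, beside 3.89%. Site labels 6b and 12c occurred in both animals. At 6b 42 of the 45 genes were higher in pig 14, and at 12c 36, where 48.8% and 47.2% of genes with at least 1 count were higher. When each biopsy was left out in turn, 12 of the 19 genes stayed called every time, namely both GZMA genes, CD2, CD3D, CD3E, CD6, CD8A, CD8B, NCR1, TBX21, UBASH3A and ZAP70. Both GZMA genes entered these filtered fits through pig 14 alone. CD8B reached the minimum of the filter in 2 pig 13 biopsies, and NCR1, TBX21 and UBASH3A in 3. With site 12d of pig 14, an injected site, left out, only these 12 of 36 tested genes were called, beside 3.57% of all genes. The others, CD4, CD5, CST7, CTSW, GNLY, KLRK1 and SLAMF7, each lost the call without at least 1 biopsy. Of the 8 fits with a biopsy left out, CTSW stayed called in 7, and CD5 and SLAMF7 in 5. CD4 and GNLY stayed called in 4, and CST7 and KLRK1 in only 1. Scaled to total counts in place of TMM, 18 genes were higher and BCL11B was lower in pig 14 (4.64% and 19.8% of all genes), the median of all genes moved to -0.21, and calls over all genes went from 1270 higher and 863 lower to 921 and 3936.

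Markers of some other cell types also differed between the animals, where 6.39% of all tested genes were called higher and 4.34% lower in pig 14. Red blood cell markers (3 of 4 symbols with a row, HBB, ALAS2 and AHSP) summed to 182 to 479 CPM in pig 14 and 4.83 to 19.4 CPM in pig 13, and all 3 genes were called higher. In pig 14 injected site 12c had the lowest red cell sum, at 182 CPM, and the lowest level of 23 of the 35 tested lymphocyte genes. In pig 13 the red cell sum was 19.4 CPM at control site 6b and 18.9 CPM at injected site 12c. Site 6b had the lowest level of 20 of the 35 genes, and site 12c of 4. Control site 7b of pig 13 had the lowest sum, at 4.83 CPM, and the highest level of 15. The shares of all genes ranked so at these sites were not computed, and a link of the 2 kinds of gene was not tested.

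Macrophage and dendritic markers summed to 577 to 967 CPM in pig 14 and 339 to 570 in pig 13, with 3 of 10 genes called higher, and mast cell markers to 81.1 to 120 against 60.4 to 77.2, with 2 of 4. B and plasma cell markers summed to 13.7 to 19.7 against 10.3 to 14.1 CPM, with 1 of 7 called higher. Fibroblast markers, with 1 of 6 called higher, summed to 136102 to 192066 CPM in pig 14 and 76704 to 108740 in 3 biopsies of pig 13, and to 19082 in its control site 7b. Keratinocyte markers, with 1 of 6 called lower, were at 12379 to 19009 CPM in pig 14, at 18884 to 23983 in the same 3 biopsies of pig 13 and at 38442 in site 7b. Site 7b thus stood apart from the other biopsies of its pig in both lists. With 7b left out, 18 of 39 tested lymphocyte genes were called higher in pig 14, beside 6.13% of all genes. Endothelial, adipocyte and neutrophil markers, 5 genes each, had 0 called by edgeR in either direction, with median log2 fold changes of 0.05, 0.74 and -0.44. At an unadjusted p under 0.05 there were 0 endothelial and 0 adipocyte genes, and 1 neutrophil gene higher and 2 lower. Among lists with a call the medians were 3.81 for red blood cell, 1.22 for fibroblast and 0.94 for mast cell markers. They were 0.76 for B and plasma cell, 0.61 for macrophage and dendritic and -0.62 for keratinocyte markers. The median of the 35 tested lymphocyte genes was 1.27, near that of the fibroblast list. The part of these markers in the lymphocyte difference was not tested.

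**Figure D3:**
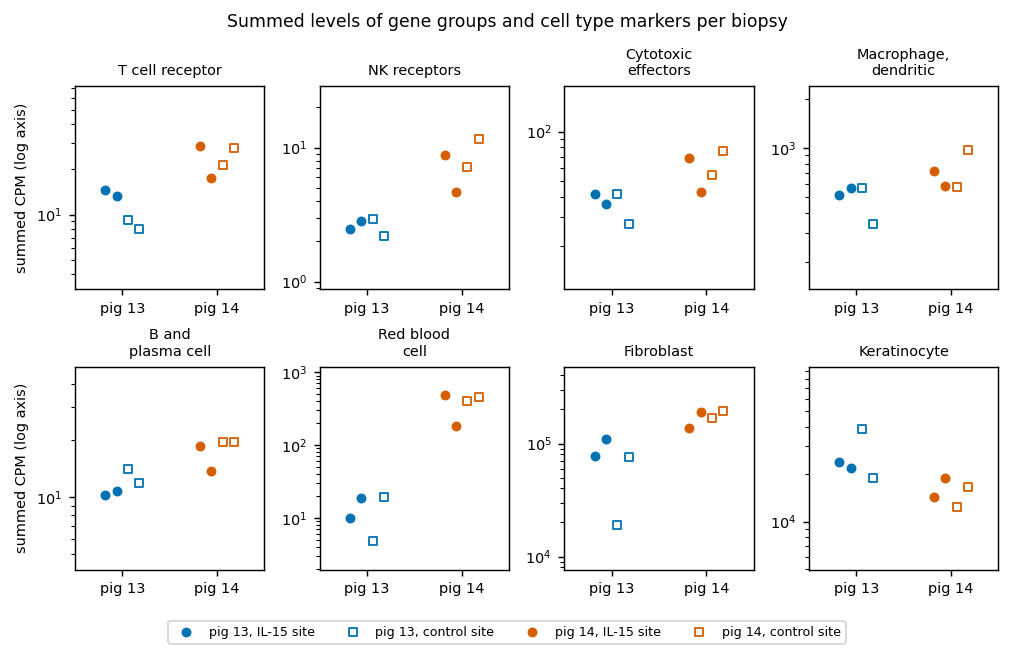
Summed CPM per biopsy on log axes for 3 groups of lymphocyte genes and 5 lists of other cell type markers, blue for pig 13 and orange for pig 14, filled for injected and open for control sites. T cell receptor chains lie at 8.00 to 14.5 CPM in pig 13 and 17.5 to 28.8 in pig 14, and red blood cell markers at 4.83 to 19.4 and 182 to 479.

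An interaction term of pig and treatment tested for a response that was unequal in the 2 animals. No lymphocyte gene was called by edgeR (0 of 35, smallest adjusted p = 0.51), and neither was any other gene (0%). DESeq2 called 0 lymphocyte genes and 0.448% of all genes. At an unadjusted p under 0.05 there were 2 lymphocyte genes, CD247 and UBASH3A, beside 8.22% of all genes. CD247 (chromosome 4, 83458417 to 83586650) was at 5.28 and 5.54 CPM in controls and 9.41 and 11.5 in injected sites of pig 13, and at 13.0 and 13.4 in controls and 9.74 and 15.7 in injected sites of pig 14. Injected sites were thus higher without overlap in pig 13 and lay on both sides of the controls in pig 14 (interaction -1.0 ± 0.33, adjusted p = 0.51 by edgeR). UBASH3A was at 0.242 and 0.655 CPM in controls and 1.03 and 1.31 in injected sites of pig 13, from 8, 24, 39 and 40 counts. In pig 14 it was at 2.72 and 4.54 CPM in controls and 2.46 and 2.63 in injected sites, so the order of the groups was the opposite (-1.87 ± 0.63, adjusted p = 0.51). TCF7 came next, with 0.34 ± 0.17.

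**Figure D4:**
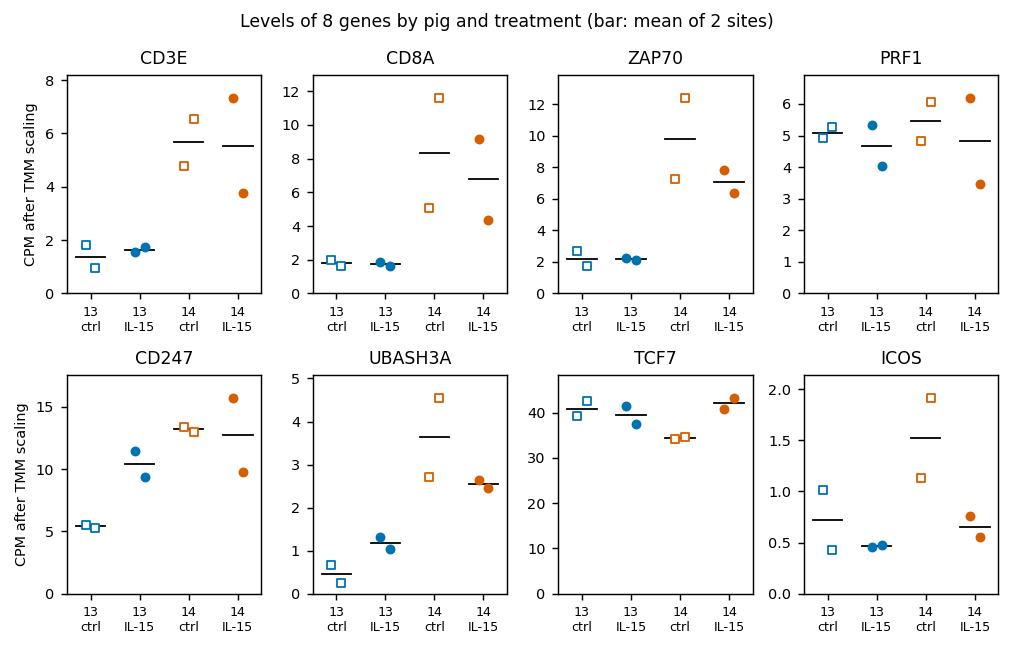
CPM after TMM scaling of 8 lymphocyte genes by pig and treatment, 1 point per biopsy with a bar at the mean of 2 sites, axes starting at 0. CD3E, CD8A and ZAP70 are separated by pig at both kinds of site, PRF1 is not, and CD247 and UBASH3A are higher at injected than control sites of pig 13 only in these 2 animals, a difference that the interaction test did not call.

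Some low counts stand beside overlapping gene models. CD3G, the gamma chain of the CD3 complex, had 0 or 1 count in every biopsy, although CD3D and CD3E next to it had 43 to 215 and 32 to 212. In the deposited annotation 96.7% of the exon bases of CD3G are shared with UBE4A and 86.7% with ATP5MG, and the handling of reads in shared bases was not given in the sources. CD27, a costimulatory receptor, shares 58.8% of its exon bases with TAPBPL. It was at 5.87 to 6.87 CPM in pig 13 and 4.77 to 6.5 in pig 14, without the difference seen for CD2 or CD8A. Further members with shared exon bases were CD28 (45.2%), SKAP1 (30.1% with SNX11), CD4 (28.1% with GPR162), CD247 (15.2% with CREG1) and KLRK1 (11.5%). Whether these overlaps changed their values was not tested.

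Of the 8 symbols without a row of their own, 5 had a gene that could be matched by its Entrez ID, outside the definition of the set. TNFRSF18, a receptor on activated and regulatory T cells also known as GITR, was at 2.67, 2.72, 3.47 and 4.12 CPM in controls and 4.34, 4.49, 4.59 and 5.15 CPM in injected biopsies. Every injected biopsy was above every control, as for 1.15% of tested genes, but edgeR did not call it (0.53 ± 0.17, unadjusted p = 0.00958, adjusted p = 0.96). TNFSF10, the death ligand TRAIL, appears in the table under the symbol GHSR and was 1.56-fold higher in pig 14 (adjusted p = 0.0039 by edgeR). For injected over control sites TNFSF10 had -0.24 ± 0.10 and was not called (unadjusted p = 0.0380, adjusted p = 0.96 by edgeR). FCGR3A, the antibody receptor CD16 of NK cells and macrophages, was at 11.4 to 31.6 CPM in pig 13 and 23.8 to 48.7 in pig 14 (0.84 ± 0.33, adjusted p = 0.16). GZMM and NCR3 had 8 to 25 and 8 to 18 counts per biopsy and were not called in either comparison. CD7 and LAT were not matched.

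A further list of T and NK genes had 50 of 56 symbols in the table and 44 tested. For injected against control sites edgeR called 0 of the 44, with a median of -0.06 and 0 at an unadjusted p under 0.05, and DESeq2 called 0. Among the genes with the smallest p were PRDM1 (-0.22 ± 0.11) and TIGIT (-0.68 ± 0.46). Between the pigs 16 of 44 were higher in pig 14 and 1 was lower, and without the filter 17 of 50 and 1. The 3 smallest p belonged to IL2RB, CCR7, a homing receptor of T cells (1.76 ± 0.20), and LAG3, an inhibitory receptor (2.61 ± 0.30). IL2RB, the beta chain through which IL-15 signals, was at 5.49 to 6.14 CPM in pig 13 and 12.6 to 18.8 in pig 14, with a log2 fold change of 1.48 ± 0.15 (adjusted p = 3.9e-04 by edgeR). PTPRC, the common leukocyte surface molecule CD45, was at 17.2 to 28.6 CPM in pig 13 and 37.9 to 71.4 in pig 14 (1.15 ± 0.22, adjusted p = 0.013). PTPRC was named after its values were seen.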

How the data were processed

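RNA-seq libraries of 8 biopsies were deposited as read counts per gene, with CPM and RPKM columns beside them per the file headers. Per the submitters' processing notes, bcl2fastq, STAR 2.5.1a and featureCounts 1.4.6-p5 (Subread) were used with the pig genome Sscrofa11.1. The counting's strand setting and the annotation release are not given in the sources used here. Counts came from the series table, where 425 genes on several rows with equal counts were taken once. CPM and RPKM in the text were computed from the deposited counts with TMM library sizes, and the deposited CPM and RPKM served as a check of the columns. The single file of control site 7b of pig 13 ended after 607 genes, all with counts equal to those used. The members and lists were chosen with earlier results of these data known.

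Counts were tested with edgeR 4.0.16 (R 4.3.3), using TMM factors, filterByExpr (minimum count 10, which is 0.331 CPM before TMM), a robust quasi-likelihood fit with terms for pig and treatment, and a second fit with their interaction. p-values were adjusted by Benjamini-Hochberg over 19862 genes, with calls at 0.05, and the biological coefficient of variation was 19.8%. DESeq2 1.42.0 was an alternative, and the others were no TMM, other size factors, no filter, no block, each pig alone, control or injected sites alone, and each biopsy left out. For the comparison of the pigs, the fit without the filter and the fit on injected sites alone were added after seeing the data. Pig was set as a block because the labels name the animal of each biopsy. Deviations from group means correlated at 0.20 to 0.58 within a pig and -0.53 to -0.25 across pigs. Deviations in a group add up to 0, so positive values within a pig force negative ones across pigs, which are not separate evidence. On simulated counts for the treatment comparison (19568 genes), 76.0% of genes changed by a log2 fold of 1 and 96.0% of those changed by 2 were recovered, and for the interaction (19570 genes) 7.0% and 73.0%. Unchanged genes called were 17 and 10. The changed genes were drawn only from genes with higher mean counts than members such as CRTAM, at 0 to 22 counts per biopsy. No pig difference was simulated beside them. These rates thus do not hold for members of few counts. Total counts were 28471089 to 36070107, where 3 counts correspond to 0.083 to 0.105 CPM. Limits from counts of 0 cover counting error only. Values were given for members called in any test, for the highest mean CPM and the smallest treatment p in each role, for the 3 smallest p of the interaction and of the pig term, and for CD3E, CD8A, CD4, GZMB, PRF1, IFNG, KLRK1 and NCR1. Values of single genes of the further T and NK list that the rule would name are in part not reported here.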

Additional observations from a re-analysis of the deposited data

Results flagged for a closer look

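In 2 of 80 groups of 4 biopsies examined (injected and control biopsies of each gene) 1 biopsy lay far from the other 3. Chance gives about 1 in 20 where all 4 values come from 1 population. Each group here held 2 biopsies of each pig, and many of these genes differed between the pigs, so that rate need not hold. LCK was at 4.63 CPM in the pig 14 injected biopsy from site 12d and at 1.74 to 2.17 CPM in the other injected biopsies. The gap to the nearest value was 0.850 of the range, above the 95% critical value of Dixon's test for 4 values. The GZMH row was at 0.0985 CPM, 3 counts, in the pig 13 injected biopsy from site 12e and at 0.795 to 0.919 CPM in the other injected biopsies, also a gap of 0.850 of the range. The cause of either was not tested.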

How the results depend on the processing

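No lymphocyte gene was called for treatment under any alternative run, and the median of the tested members lay between -0.28 and 0.09 when each biopsy was left out. Over all genes the 7 treatment calls became 58 with DESeq2, 30 in pig 13 alone, 17 in pig 14 alone and 3 to 19 with a biopsy left out. Without the replicate block for pig there were 6 such calls, and 0 among the members, so the pairing by pig changed no member's call. Between the pigs, the 2133 calls over all genes became 4857 on total counts, 519 in control sites, 1157 in injected sites and 1142 to 2240 with a biopsy left out. The 19 member calls became 6 in control sites, 9 in injected sites and 12 to 22 with a biopsy left out, and DESeq2 called 23 higher. The 22, with injected site 12c of pig 14 left out, were 21 higher and 1 lower in pig 14, the latter BCL11B. The interaction, with 0 calls over all genes, gave 89 with DESeq2, 8 without the filter and 0 to 313 with a biopsy left out, the highest with control site 6b of pig 13 left out. Of 454 member values between the pigs, 388 kept their side of the threshold, 54 lost the call and 12 gained it, and none that was called turned its sign. The causes of these changes were not tested. With 2 animals and members of few counts, changes under 2-fold were often within the intervals, and the simulated interaction recovered few genes at that size.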
